A study of Mus musculus with 4 samples.

Results

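Zbtb16, Rora, Nfil3, Tox and Tox2 are 5 of the 31053 genes counted in these data, and they were taken by symbol as transcription factors of innate lymphoid cells, a set chosen with earlier results of these data known. All 5 symbols matched 1 row each in both gene expression matrices. The study grew multipotent bone marrow progenitors of mice on OP9-Dll1 stroma, which presents the Notch ligand Dll1, with IL-7 and Flt3-ligand at 10 ng/ml, and asked what gain of Runx1 or loss of Runx1 and Runx3 does to early T-cell progenitors. For gain of Runx1, progenitors of B6.Bcl2 transgenic mice aged 8 to 10 weeks received a retrovirus carrying MSCV-Runx1-mCherry or MSCV-empty-mCherry on day 2 and were harvested on day 4 or day 6 as live lineage-negative mCherry+ CD45+ cells. For the double knockout, progenitors of B6.Cas9;Bcl2 transgenic mice received the vectors E42-gRunx1-humanNGFR and E42-gRunx3-mTurquoise, with 3 guide pairs per gene, or the same vectors with guides against luciferase, and were harvested on day 5 or day 8 as live lineage-negative mTurquoise+ hNGFR+ CD45+ cells. Every group, controls included, thus carried the Bcl2 transgene, and each sort selected for transduced cells.

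Each culture was stained with a hashtag, an antibody that carries a short DNA barcode, before equal numbers of cells were pooled. Each experiment gave 1 mRNA library, and cultures ran for 4 to 5 days in experiment 1 and for 4 to 8 days in experiment 2. The hashtag tables name their columns by the barcode sequence alone, and no label says which vector or which day of harvest a barcode marks. Each experiment is therefore described here as 8 cultures of unknown condition, no condition is read from any value, and nothing is tested between conditions. Hashtags are numbered 1 to 8 in the order of those columns. The same 8 barcodes were used in both experiments, and a shared number does not mark a shared condition.

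Innate lymphoid cells and T cells arise from overlapping bone marrow progenitors and share many regulators, and Notch signals drive the T-cell choice. Nfil3 encodes a basic leucine zipper factor that acts early in innate lymphoid and natural killer cell development and also couples to the circadian clock. Tox and Tox2 encode HMG-box proteins, of which Tox is needed for innate lymphoid progenitors and for CD4 T cells, and Tox2 is known from natural killer cells and follicular helper T cells. Zbtb16 encodes PLZF, a zinc finger factor that marks a committed innate lymphoid precursor and drives invariant natural killer T cells. Rora encodes RORα, a nuclear receptor required for group 2 innate lymphoid cells.

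In RefSeq's annotation of GRCm38.p6, Zbtb16 lies at chr9:48651797-48836225, Rora at chr9:68653404-69388246, Nfil3 at chr13:52967209-52982878, Tox at chr4:6686353-6991557 and Tox2 at chr2:163203058-163324172. Rora overlaps Gm15511 and Tox overlaps Gm11802, which are also rows of the matrices, and whether strand was used in counting is not given in the sources used here. The values of Rora and Tox are to that extent uncertain. A window from 250 bases before to 50 bases after a transcript start was found for 3 of the 5 genes in the RefSeq table, with 5 windows for Tox2 and 1 each for Rora and Nfil3. These windows are shown for Nfil3 and Tox2, which were highest in the same hashtags in both experiments (below), and the first sequence lies on the minus strand and the second on the plus strand.
Nfil3, chr13:52980990-52981289: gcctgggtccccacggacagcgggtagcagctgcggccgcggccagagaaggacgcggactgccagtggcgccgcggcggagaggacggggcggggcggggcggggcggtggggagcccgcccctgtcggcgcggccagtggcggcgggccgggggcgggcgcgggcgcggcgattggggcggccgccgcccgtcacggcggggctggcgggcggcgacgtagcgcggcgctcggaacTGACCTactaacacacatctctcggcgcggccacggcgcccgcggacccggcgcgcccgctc
Tox2, chr2:163202877-163203176: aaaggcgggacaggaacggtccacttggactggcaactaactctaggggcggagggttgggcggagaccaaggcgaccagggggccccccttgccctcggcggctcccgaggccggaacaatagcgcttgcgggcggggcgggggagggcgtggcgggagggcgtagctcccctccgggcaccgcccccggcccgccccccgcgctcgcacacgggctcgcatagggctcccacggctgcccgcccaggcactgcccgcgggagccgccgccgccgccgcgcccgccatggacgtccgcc

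Both windows are rich in G and C, at 81.7% for Nfil3 and 77.0% for Tox2. The letters TGTGGT and TGCGGT, core forms of the motif that RUNX proteins bind, were in none of the 7 windows on either strand, and 22.4% of all 32851 windows in the table hold at least 1 of them. The capitals in the Nfil3 window mark the reverse complement of AGGTCA, the letters that RORα and related receptors bind, which 16.3% of all windows hold. The letters TTACGTAA, bound by NFIL3, were in none of the 7 windows and in 0.119% of all windows. Some of the Tox2 windows overlap each other, and Zbtb16 and Tox had no window. The 7 windows thus cannot show that these genes lack a motif. These matches describe letters only.

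Of the deposited barcodes, 9332 of 9967 in experiment 1 and 10214 of 10556 in experiment 2 had at least 500 genes and under 10% mitochondrial UMIs (unique molecular identifiers, each counting 1 captured RNA molecule). A hashtag was called where the top tag had at least 50 counts and at least 3 times the second, which gave 8797 cells (94.3%) and 8335 cells (81.6%). A hashtag held 691 to 1291 cells and 14502385 to 38067298 UMIs in experiment 1, and 855 to 1312 cells and 22272716 to 42684236 UMIs in experiment 2. The 2 experiments shared 39 cell barcodes, 28 of them among the hashtagged cells. Levels below are the UMIs of a gene summed over the cells of a hashtag and divided by all their UMIs, in UMIs per 1e6 UMIs (CPM), and all intervals are exact 95% intervals that cover counting error only. Levels are not compared between genes, since a UMI count per gene also depends on how well each transcript is captured.

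The 5 genes varied widely between hashtags, and 3 patterns were seen. Zbtb16, Nfil3 and Tox2 were highest in hashtags 3 and 4 of experiment 1 and in hashtags 2 and 4 of experiment 2. Tox was highest in hashtags 7 and 8 of experiment 1, and in hashtags 8 and 4 of experiment 2. Rora was highest in hashtag 8 of experiment 1 and in hashtags 4 and 8 of experiment 2. All 5 genes differed at least 2-fold between their highest and lowest hashtag in both experiments, against 18.5% of the 10821 genes examined in experiment 1 and 26.6% of the 11206 in experiment 2. A ratio of at least 4 was reached by Zbtb16, Rora, Tox and Tox2 in both experiments, against 5.31% and 10.7% of genes. Those background shares cover genes whose lowest hashtag held at least 10 UMIs and whose mean was at least 1 CPM, a floor that Tox2 missed with 6 and 4 UMIs there.

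**Figure D1:**
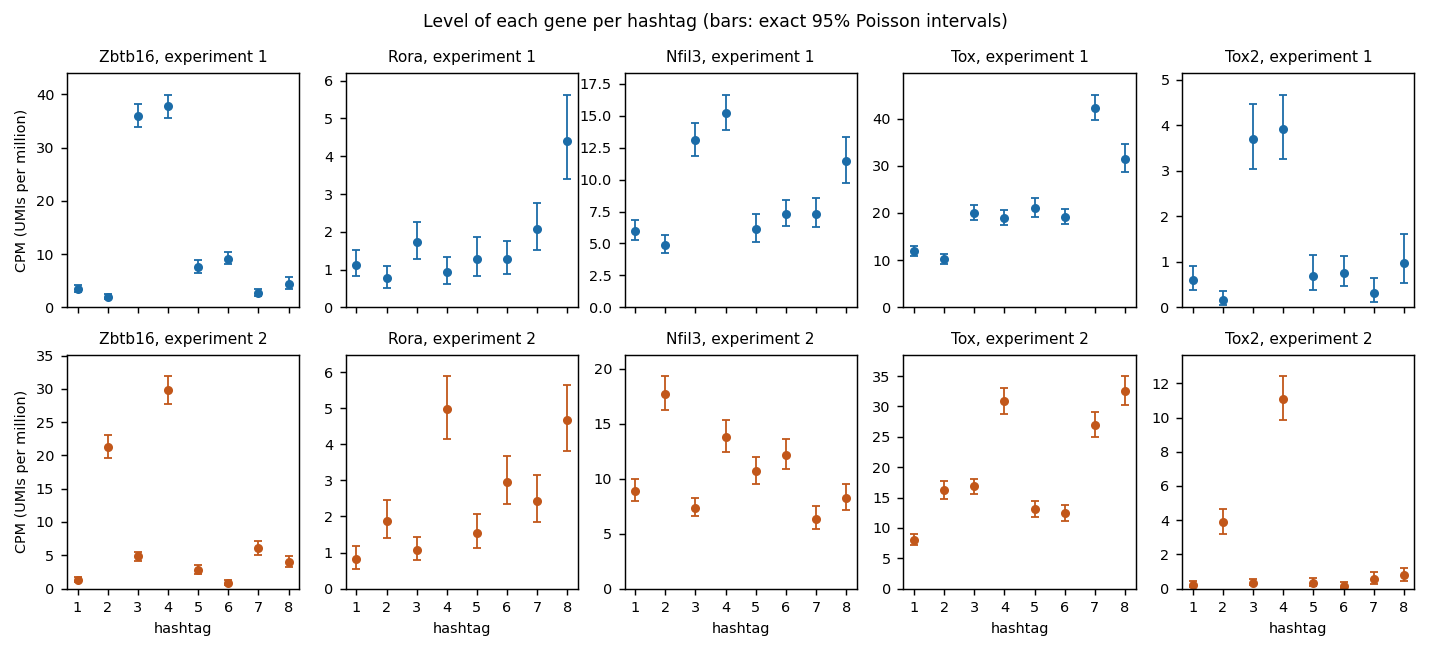
Level of each gene (columns) in each of the 8 hashtags (x axis) of experiment 1 (top row) and experiment 2 (bottom row), in CPM on a linear axis that starts at 0, with exact 95% Poisson intervals as bars. Hashtags 3 and 4 of experiment 1 and hashtags 2 and 4 of experiment 2 stand highest for Zbtb16, Nfil3 and Tox2, and Tox and Rora follow other orders.

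Zbtb16, the PLZF gene, had 3.47, 1.94, 36.0, 37.8, 7.57, 9.14, 2.66 and 4.41 CPM in hashtags 1 to 8 of experiment 1. In experiment 2 it had 1.28, 21.3, 4.83, 29.8, 2.83, 0.861, 6.03 and 3.95 CPM. A pair of cultures in each experiment thus lay far above the other 6. The highest hashtag exceeded the lowest 19.5-fold (15.3 to 25.1) in experiment 1 and 34.6-fold (22.9 to 55.0) in experiment 2. In the order of levels, hashtag 3 lay 3.93-fold (3.43 to 4.53) above hashtag 6, the next in experiment 1, and hashtag 2 lay 3.53-fold (2.93 to 4.27) above hashtag 7, the next in experiment 2. Hashtags 3 and 4 of experiment 1 did not differ beyond counting error (ratio 1.05, 0.966 to 1.14), whereas hashtag 4 of experiment 2 exceeded hashtag 2 by 1.40-fold (1.26 to 1.56).

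The high Zbtb16 levels came with many more positive cells. A Zbtb16 UMI was found in 45.4% of the cells of hashtag 3 and 47.3% of those of hashtag 4 in experiment 1, and in 3.09 to 14.4% of the cells of the other hashtags. With every cell thinned to 10000 UMIs, the shares in hashtags 3 and 4 were 28.2% and 27.3% and the median over the 8 hashtags was 5.32%. In experiment 2 the thinned shares were 19.9% in hashtag 2 and 24.1% in hashtag 4, with a median of 3.75%. Granulocyte or monocyte-like cells were used as a rough background, though they were not shown to lack Zbtb16. They gave thinned shares of 0.227% and 1.48% in the 2 experiments. Their median depths were 31487 and 28526 UMIs, above the medians of 18057.5 to 29606 UMIs in the hashtags of experiment 1 and within the 19543 to 31961 UMIs of experiment 2. Thinning left out 3.59 to 17.7% of the cells of a hashtag in experiment 1 and 3.29 to 15.1% in experiment 2. UMIs per positive cell ranged from 1.40 to 2.06 between the hashtags of experiment 1 and from 1.35 to 1.90 in experiment 2.

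Runx1, which the study perturbed alone or together with Runx3, had 76.9, 79.4, 38.2, 39.3, 96.5, 85.8, 240.8 and 210.0 CPM in hashtags 1 to 8 of experiment 1. In experiment 2 it had 57.5, 33.7, 52.9, 39.5, 58.8, 102.1, 86.7 and 120.9 CPM. The lowest Runx1 values thus lay in the hashtags with the highest Zbtb16 in both experiments. Runx3 was also lowest in those hashtags. In hashtags 3 and 4 of experiment 1, Runx3 had 115.1 and 118.5 CPM (143.4 to 181.2 CPM elsewhere). In hashtags 2 and 4 of experiment 2 it had 95.3 and 74.7 CPM (117.1 to 144.7 CPM elsewhere). The counts do not separate vector-borne Runx1 from the mouse gene, edited transcripts can still be counted, and no condition is read from these values.

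Nfil3, the early innate lymphoid factor, varied least. In hashtags 1 to 8 it had 6.02, 4.91, 13.1, 15.2, 6.15, 7.34, 7.34 and 11.4 CPM in experiment 1, and 8.92, 17.8, 7.38, 13.8, 10.7, 12.2, 6.37 and 8.26 CPM in experiment 2. Its ratio of highest to lowest hashtag was 3.10 (2.61 to 3.70) and 2.79 (2.32 to 3.37). In experiment 1, hashtag 8 came next after hashtags 4 and 3 and lay 1.56-fold (1.25 to 1.95) above hashtag 7, and the step from hashtag 3 to hashtag 8 was within counting error. A Nfil3-positive cell had on average 1.18 to 1.50 UMIs in experiment 1 and 1.17 to 1.62 in experiment 2. Thinned shares of positive cells ran from 4.24 to 13.3% and from 5.66 to 15.4%.

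Granulocyte or monocyte-like cells held Nfil3 at 12.4 CPM (10.6 to 14.3) in experiment 1 and 18.3 CPM (15.7 to 21.2) in experiment 2, so these cells are no background for it. All 14 markers of that class were found, and their summed level ranged from 296.7 to 1674 CPM between hashtags of experiment 1 and from 224.8 to 12872 CPM in experiment 2. The highest sum of experiment 1 was in hashtag 2, where Nfil3 was lowest, and the highest of experiment 2 was in hashtag 6, where Nfil3 came after hashtags 2 and 4. The cells of clusters named as stromal, granulocyte or monocyte, dendritic, mast or basophil, or B-lineage-like were also left out. The Nfil3 levels of hashtags 3 and 4 of experiment 1 were then 13.3 and 15.3 CPM. Those of hashtags 2 and 4 of experiment 2 were 17.4 and 13.7 CPM. That removal was not complete in experiment 2 and cannot be taken as complete in experiment 1, since clusters that met no rule for a name stayed in. In experiment 2 these included cluster 6, 839 cells led by Clec4n and Ms4a4c with the macrophage gene C1qb. It had 13.7 CPM of Nfil3 and held 13.02% of all Nfil3 UMIs of that experiment. In experiment 1 no cluster was named dendritic-like, though the summed dendritic markers reached 998.4 CPM in hashtag 6. At a clustering resolution of 1, 563 cells of experiment 1 formed a dendritic-like cluster.

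Tox, needed for innate lymphoid progenitors, followed another order. It had 11.9, 10.2, 20.0, 19.0, 21.1, 19.2, 42.3 and 31.5 CPM in hashtags 1 to 8 of experiment 1. In experiment 2 it had 8.05, 16.2, 16.8, 30.8, 13.1, 12.4, 26.9 and 32.6 CPM. In experiment 1 the hashtags thus formed steps, with 7 above 8 (1.34-fold, 1.20 to 1.50), 8 above 5 (1.49-fold, 1.30 to 1.70), hashtags 5, 3, 6 and 4 in an order with no step beyond counting error, and 1 and 2 lowest. The ratio of highest to lowest was 4.16 (3.68 to 4.70) in experiment 1 and 4.05 (3.52 to 4.67) in experiment 2, where hashtag 1 was lowest and the ratio without it was 2.62. Tox was found in 20.6 to 43.6% of the cells of a hashtag in experiment 1 and in 18.4 to 41.6% in experiment 2. At 10000 UMIs per cell, these shares were 9.34 to 29.4% and 7.89 to 26.4%, against 0.907% and 1.85% in the granulocyte or monocyte-like cells.

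Tox2, the close relative of Tox, was scarce in most cultures. In experiment 1 it had 3.71 CPM in hashtag 3 and 3.92 CPM in hashtag 4, and 0.604, 0.164, 0.684, 0.744, 0.315 and 0.965 CPM in hashtags 1, 2, 5, 6, 7 and 8. In experiment 2 it had 3.88 CPM in hashtag 2 and 11.1 CPM in hashtag 4, and 0.233, 0.328, 0.350, 0.150, 0.552 and 0.763 CPM in hashtags 1, 3, 5, 6, 7 and 8. Tox2 thus stood out in the same cultures as Zbtb16. The ratio of highest to lowest was 24.0 (10.7 to 66.6) and 74.1 (28.6 to 273.9), with wide intervals because the lowest hashtags had 6 and 4 UMIs. Without hashtag 2 of experiment 1 the ratio was 12.4, and without hashtag 4 of experiment 2 it was 25.9. Thinned shares of positive cells reached 3.60% in hashtag 3 of experiment 1 and 9.06% in hashtag 4 of experiment 2, with medians over the hashtags of 0.658% and 0.467%. No Tox2 UMI was found in the 451 and 331 granulocyte or monocyte-like cells, which allows levels of up to 0.203 and 0.311 CPM (3 UMIs).

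Tox4, a relative with broad expression, showed what a gene of this family looks like without such differences, since its highest hashtag exceeded its lowest 1.15-fold (1.08 to 1.23) in experiment 1 and 1.15-fold (1.07 to 1.23) in experiment 2. Tox3 had 60 UMIs in all in experiment 1 and 74 in experiment 2, too few for a ratio.

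Rora, the receptor gene of group 2 innate lymphoid cells, was rare in every culture. It had 1.13, 0.764, 1.72, 0.925, 1.27, 1.28, 2.07 and 4.41 CPM in hashtags 1 to 8 of experiment 1. In experiment 2 it had 0.817, 1.87, 1.08, 4.97, 1.54, 2.96, 2.42 and 4.67 CPM. Hashtag 8 was set apart in experiment 1, at 2.13-fold (1.44 to 3.18) the level of hashtag 7, and hashtags 4 and 8 of experiment 2 did not differ beyond counting error (1.07-fold, 0.817 to 1.39). Only 1 of the 7 pairs of neighbours in the order was separated in each experiment. The ratios of highest to lowest were 5.78 (3.65 to 9.35) and 6.09 (4.02 to 9.52), and leaving out hashtag 8 of experiment 1 gave 2.71.

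A few cells held much of the Rora signal. The 5 cells with the most Rora UMIs in a hashtag held 27.5 to 57.1% of them in experiment 1 and 26.9 to 54.5% in experiment 2, and a single cell had up to 13 and 16 UMIs. For Nfil3 the same share was 5.31 to 12.7% and 5.57 to 15.8%, and for Tox2, which had only a few UMIs in most hashtags, it was 14.5 to 100% and 11.4 to 100%. Without those 5 cells, hashtag 8 of experiment 1 had 2.07 CPM of Rora in place of 4.41 CPM, and it was still the highest, since the other hashtags then had 0.327 to 1.26 CPM. Thinned shares of Rora-positive cells were 0.606 to 2.08% in experiment 1 and 0.656 to 3.12% in experiment 2, against 0.227% and 1.11% in the granulocyte or monocyte-like cells. The lower cultures of experiment 2 were at or below the latter share. Both background shares rest on few Rora UMIs, 5 in 451 cells and 8 in 331 cells before thinning, and are themselves uncertain.

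Cells of each experiment were grouped into clusters without using the 5 genes, which gave 13 clusters in experiment 1 and 16 in experiment 2. A cluster was named where markers of a class led its genes, and cluster values are descriptions without a test. Cluster 11 of either experiment was innate lymphoid-like by Il2rb and Klrd1 among its 10 leading genes, with Xcl1 in experiment 1 and Ncr1 and Icos in experiment 2. It held 180 cells (2.05%) in experiment 1, with 6 to 60 cells per hashtag, and 199 cells (2.39%) in experiment 2, with 6 to 48 cells per hashtag. In it, Zbtb16 had 54.3 CPM (46.5 to 63.1) in experiment 1 and 36.6 CPM (30.6 to 43.3) in experiment 2, and Tox had 145.4 CPM (132.3 to 159.4) and 114.4 CPM (103.6 to 125.9). Nfil3 had 41.5 and 35.7 CPM there, and Tox2 had 19.5 and 6.87 CPM.

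Rora was the gene most concentrated in these cells. Its level in the innate lymphoid-like cluster was 45.7 CPM (38.5 to 53.8) in experiment 1 and 42.3 CPM (35.9 to 49.6) in experiment 2. That 2.05% of the cells of experiment 1 held 44.3% of all Rora UMIs, and the 2.39% of experiment 2 held 28.5%. Rora-positive cells made up 32.8% and 27.6% of this cluster. The 12 innate lymphoid markers, all of them found, summed to 21.8 to 78.7 CPM between hashtags of experiment 1, highest in hashtags 7 and 8, and to 21.3 to 312.9 CPM in experiment 2, highest in hashtag 4. Eomes, among these markers, had 0 UMIs in hashtag 4 of experiment 1 and in hashtags 1 and 2 of experiment 2. Rora was highest in hashtags 8 and 7 of experiment 1 and in hashtag 4 of experiment 2. In experiment 2, however, cluster 11 drew more cells from hashtags 3, 8 and 6 (48, 38 and 35) than from hashtag 4 (30). Hashtag 4 held 106 of the 164 cells of cluster 12, which met no rule for a name. Gzmc, Cd8b1, Trac and the innate lymphoid marker Xcl1 were among its 10 leading genes, and it had 2.14 CPM of Rora. The part of the innate lymphoid-like cells in the Rora differences between hashtags was not tested.

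**Figure D2:**
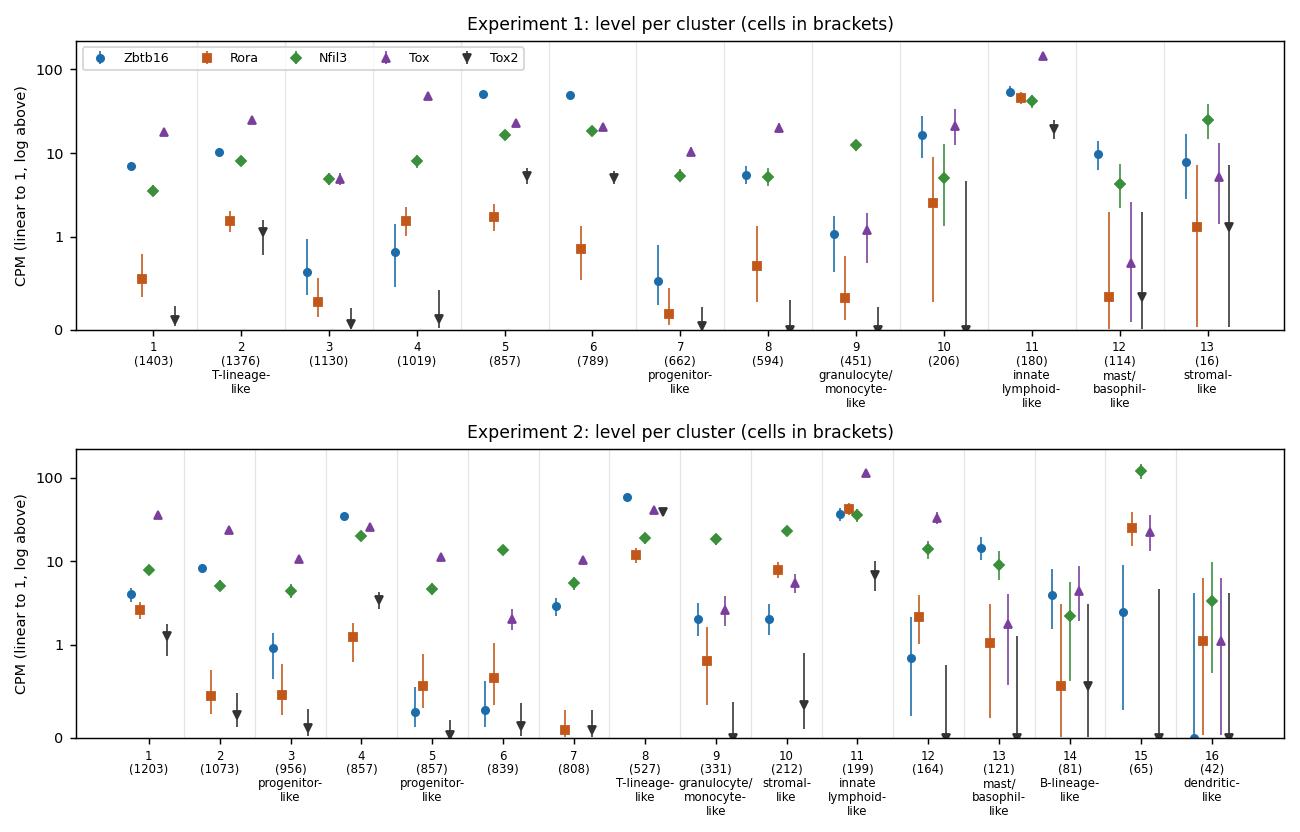
Level of each gene in each cluster of experiment 1 (top) and experiment 2 (bottom), with the number of cells and the name, where one was given, under each cluster number, in CPM on an axis that is linear to 1 and logarithmic above, with exact 95% Poisson intervals as bars. The innate lymphoid-like cluster 11 is high for all 5 genes, clusters 5 and 6 of experiment 1 and clusters 4 and 8 of experiment 2 are high for Zbtb16 and Tox2, and cluster 15 of experiment 2 is high for Nfil3.

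Most Zbtb16 UMIs were elsewhere. Clusters 5 and 6 of experiment 1, led by Pgam2 and Gsn and with the T-cell gene Cd3g among their leading genes, had 50.8 CPM (47.5 to 54.3) and 49.3 CPM (46.4 to 52.2) of Zbtb16 and together 1640 of their 1646 cells came from hashtags 3 and 4. These clusters held 29.2% and 37.8% of all Zbtb16 UMIs and 28.9% and 36.8% of all Tox2 UMIs of the experiment. In them Tox2 had 5.35 and 5.10 CPM, and Rora had 1.75 and 0.871 CPM. They thus had Zbtb16 at about the level of the innate lymphoid-like cluster, with Rora at a small fraction of the level there.

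Experiment 2 had a like arrangement. Cluster 4, led by Pgam2 and Gsn and drawn mostly from hashtags 2 (617 cells) and 4 (226 cells), had 34.4 CPM (32.0 to 37.0) of Zbtb16 and 3.45 CPM of Tox2. Cluster 8, a T-lineage-like cluster led by Themis, Pgam2 and Bcl11b with 453 of its 527 cells from hashtag 4, had 58.6 CPM (53.4 to 64.1) of Zbtb16 and 38.6 CPM (34.4 to 43.1) of Tox2. That single cluster held 66.1% of all Tox2 UMIs of experiment 2 with 6.32% of the cells. It also had 11.8 CPM (9.51 to 14.4) of Rora and 40.6 CPM of Tox. Because these clusters came almost wholly from 1 or 2 hashtags, culture and cell state cannot be told apart in them.

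Zbtb16 was also compared between hashtags within a cluster that most of them shared. In cluster 2 of experiment 1, which was T-lineage-like, Zbtb16 had 19.9 CPM (12.97 to 29.09) in hashtag 3 and 24.2 CPM (16.4 to 34.3) in hashtag 4. In the same cluster it had 7.55, 8.33, 9.94, 13.8, 2.46 and 6.32 CPM in hashtags 1, 2, 5, 6, 7 and 8, with 54 to 369 cells per hashtag. In cluster 2 of experiment 2, where 7 hashtags had at least 50 cells, the values were 12.5 CPM (8.19 to 18.4) in hashtag 2 and 14.2 CPM (9.93 to 19.6) in hashtag 4, and 2.98, 9.56, 5.66, 10.3 and 4.65 CPM in hashtags 1, 3, 5, 7 and 8. The spread within these clusters was therefore smaller than over all cells of a hashtag, and the order was less clear. This covers a small part of the Zbtb16-high cultures. Cluster 2 held 54 of the 1181 cells of hashtag 3 and 57 of the 1213 cells of hashtag 4 in experiment 1. In experiment 2 it held 56 of the 1025 cells of hashtag 2 and 86 of the 1170 cells of hashtag 4. In experiment 1 the interval of hashtag 6 (11.4 to 16.6 CPM) overlapped those of hashtags 3 and 4. In experiment 2 the intervals of hashtags 2, 3, 4 and 7 overlapped, and that of hashtag 2 also reached that of hashtag 8.

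Tox stood apart in cluster 4 of experiment 1, which was led by Capg, Rgs1 and Ccl5 and in which 997 of 1019 cells came from hashtags 7 and 8. It had 48.5 CPM (45.2 to 51.9) of Tox, with Zbtb16 at 0.837 CPM (0.458 to 1.41) and Tox2 at 0.120 CPM. Within the T-lineage-like cluster 2 of that experiment, Tox had 18.4, 23.3, 31.3, 23.4, 24.4, 24.1, 31.1 and 32.4 CPM in hashtags 1 to 8. The hashtags thus differed much less in Tox within this cluster than over all their cells. It held only 175 of the 1198 cells of hashtag 7 and 112 of the 691 cells of hashtag 8.

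Nfil3 had its highest level in cluster 15 of experiment 2, 65 cells led by Ccl22, Ccr7 and Cd83, genes of mature antigen-presenting cells, that did not meet the rule for a name. It had 118.7 CPM (96.1 to 145.2) of Nfil3 and 25.0 CPM (15.3 to 38.6) of Rora there, and 49 of the 65 cells came from hashtags 6 and 8. Stromal-like cells, which the CD45+ sort should have removed, still made up 212 cells of experiment 2 and had 22.8 CPM of Nfil3 and 7.93 CPM (6.37 to 9.76) of Rora. They held 16.5% of all Rora UMIs. The summed level of the 9 stromal markers ranged from 166.9 to 829.4 CPM between hashtags of experiment 2. The stromal-like cells and the other named classes removed for Nfil3 above were also left out here, with clusters 6 and 15 kept. Rora then had 5.32 CPM in hashtag 4 and 4.84 CPM in hashtag 8 of experiment 2. Its ratio of highest to lowest was 10.2 in place of 6.09.

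At the other end, progenitor-like cells had little Zbtb16. Cluster 7 of experiment 1, led by cell division genes with Mef2c and Lmo2, had 0.521 CPM, and cluster 5 of experiment 2, led by Egfl7, Cox4i2 and Lmo2, had 0.278 CPM. Tox was present in both, at 10.4 and 11.2 CPM.

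Cells of each hashtag were also split by Il2ra, which encodes CD25 and turns on at the second stage of T-cell development, and Bcl11b, which turns on at T-cell commitment. The 3 sets were cells with a Bcl11b UMI, cells with an Il2ra UMI and no Bcl11b UMI, and cells with neither. None of the 3 sets was limited to T-lineage cells, and each can hold innate lymphoid-like cells. The last set can also hold other classes, such as the granulocyte or monocyte-like clusters. In those clusters Tox had 1.22 and 2.59 CPM and Zbtb16 had 1.08 and 2.07 CPM. The part of such cells in the differences was not tested. Zbtb16, Tox and Tox2 were each higher in the cells with Il2ra alone than in the cells with neither in 8 of 8 hashtags of both experiments. For Tox2 this came from small counts, with 0 to 4 UMIs in the cells with neither in 6 hashtags of each experiment. For Zbtb16, the medians over hashtags were 1.83, 7.24 and 9.21 CPM in cells with neither, with Il2ra alone and with Bcl11b in experiment 1, and 1.30, 8.37 and 4.45 CPM in experiment 2. The step to Bcl11b cells was upward in 7 of 8 hashtags of experiment 1 and in 3 of 8 of experiment 2. Those 3 included hashtags 2 and 4, where Zbtb16 had 14.3, 23.7 and 42.6 CPM and 14.9, 25.6 and 39.6 CPM.

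For Tox, the medians in the same order were 12.3, 20.4 and 26.8 CPM in experiment 1 and 11.2, 25.7 and 29.1 CPM in experiment 2. Tox2 reached 8.40 and 7.95 CPM in the Bcl11b cells of hashtags 3 and 4 of experiment 1 and 11.8 and 18.9 CPM in those of hashtags 2 and 4 of experiment 2, and at most 1.39 CPM in those of any other hashtag. Rora was higher in cells with Bcl11b than in cells with Il2ra alone in 7 of 8 and 6 of 8 hashtags, from small counts. Innate lymphoid-like cells, with 45.7 and 42.3 CPM of Rora in the 2 experiments, were left out of neither set, and their part was not tested. Nfil3 had no such order, with the Il2ra cells above the cells with neither in 5 of 8 and 4 of 8 hashtags. A UMI call depends on depth, and the median UMIs per cell ran from 15440 to 29698 in the cells with neither and from 19344 to 30338 in the Il2ra cells of experiment 1. In its Bcl11b cells they ran from 16831.5 to 28620.5. In experiment 2 they ran from 18042 to 31756 in the cells with neither, 24779 to 32585 in the Il2ra cells and 17255 to 29434 in the Bcl11b cells. Hashtag 4 of experiment 2 had a median of 26813 UMIs in the Il2ra cells and 17255 in the Bcl11b cells.

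**Figure D3:**
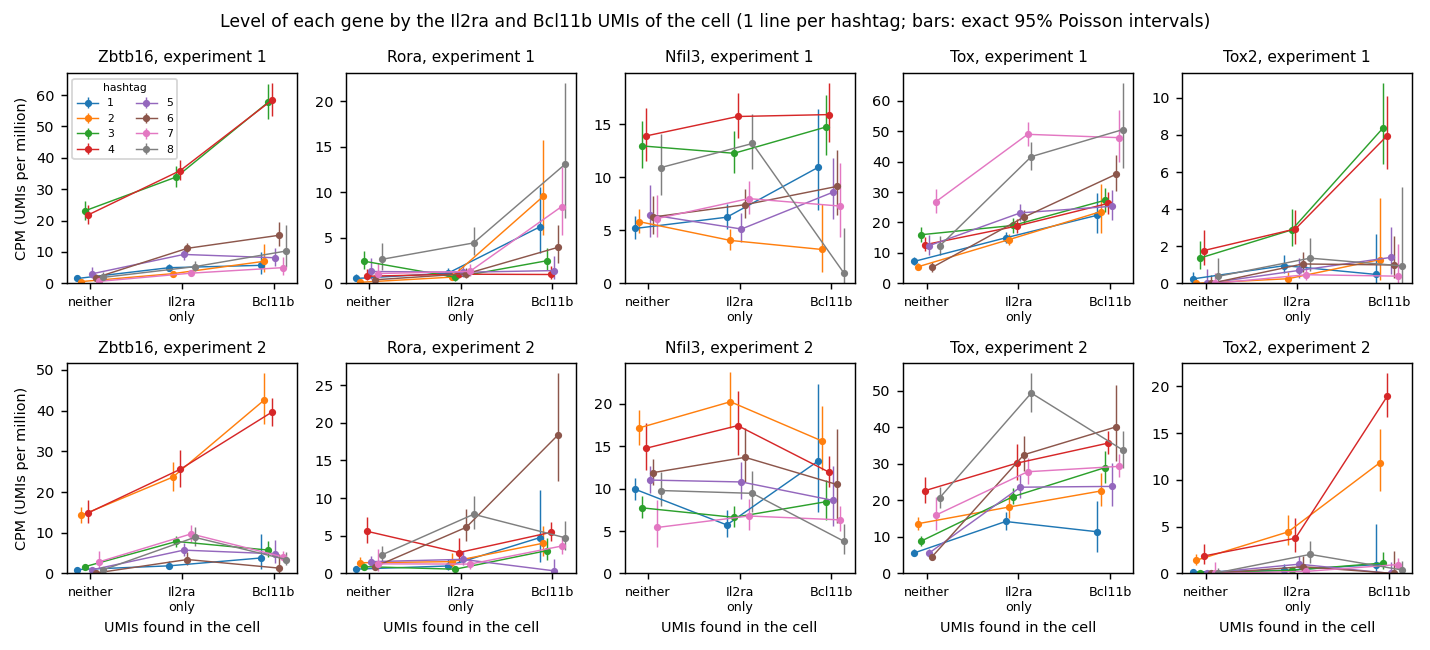
Level of each gene (columns), in CPM on a linear axis that starts at 0, in cells with neither Il2ra nor Bcl11b UMIs, with Il2ra alone and with Bcl11b (x axis), with 1 line per hashtag, exact 95% Poisson intervals as bars, and experiment 1 above experiment 2. Zbtb16, Tox and Tox2 are higher in the Il2ra cells than in the cells with neither in every hashtag, and Nfil3 has no such order.

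The genes also occurred together in single cells. At 10000 UMIs per cell, and in the 6 hashtags of each experiment with at least 20 Zbtb16-positive cells, Tox was found in a median of 29.7% of the cells with Zbtb16 and 15.9% of the cells without it in experiment 1, and in 29.3% and 18.2% in experiment 2. It was more frequent in the Zbtb16-positive cells of 6 of 6 hashtags in both experiments, with separate exact intervals in 2 and 1 of them. Tox2 was found in a median of 6.98% of cells with Zbtb16 and 0.281% of cells without it in experiment 1. In experiment 2 these medians were 6.85% and 0.484%. Tox2 was again higher with Zbtb16 in 6 of 6 hashtags in both, with separate intervals in 4 and 2 of them. Some of the Tox2 shares rest on very few cells, such as 1 of 63 in hashtag 5 and 2 of 21 in hashtag 7 of experiment 1. The most cells with both genes were in hashtag 4 of experiment 2, with 46 of 239 Zbtb16-positive cells (19.2%, 14.4 to 24.8%) against 5.84% (4.27 to 7.75%) of the others. Median UMIs before thinning were 19550 in the former and 22735 in the latter. Hashtags 3 and 4 of experiment 1 had more Zbtb16-positive cells. In hashtag 3, Tox2 was in 14 of 321 of them (4.36%, 2.40 to 7.21%) against 3.30% (2.19 to 4.77%) of the others, with overlapping intervals. In hashtag 4 it was in 22 of 315 (6.98%, 4.43 to 10.4%) against 1.55% (0.827 to 2.63%). All cells of a hashtag entered these comparisons, whatever their class. The cells without Zbtb16 can thus include the granulocyte or monocyte-like cells, which had thinned Tox shares of 0.907% and 1.85% and no Tox2 UMI. Cells with Zbtb16 can include the innate lymphoid-like cells, in which all 5 genes were high. The part of such cells in the differences was not tested.

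Nfil3 was found with Zbtb16 more often than without it in 5 of 6 hashtags of experiment 1 and 6 of 6 of experiment 2. Those differences were small, with a median of 3.17 and 5.73 percentage points, and the intervals were separate in 1 and 0 hashtags. For Rora the direction was the same in 5 of 6 and 4 of 6 hashtags. In hashtags 7 and 8 of experiment 2, 6 of 44 (13.6%) and 6 of 23 (26.1%) of the Zbtb16-positive cells had a Rora UMI, whereas the counts were 2 of 315 (0.635%) in hashtag 4 of experiment 1 and 1 of 195 (0.513%) in hashtag 2 of experiment 2. Hashtag 4 of experiment 2 had 17 of 239 (7.11%), hashtag 3 of experiment 1 had 10 of 321 (3.12%) and hashtag 5 of experiment 2 had 0 of 20, with an exact upper limit of 16.8%. Most of these shares rest on few Rora-positive cells.

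**Figure D4:**
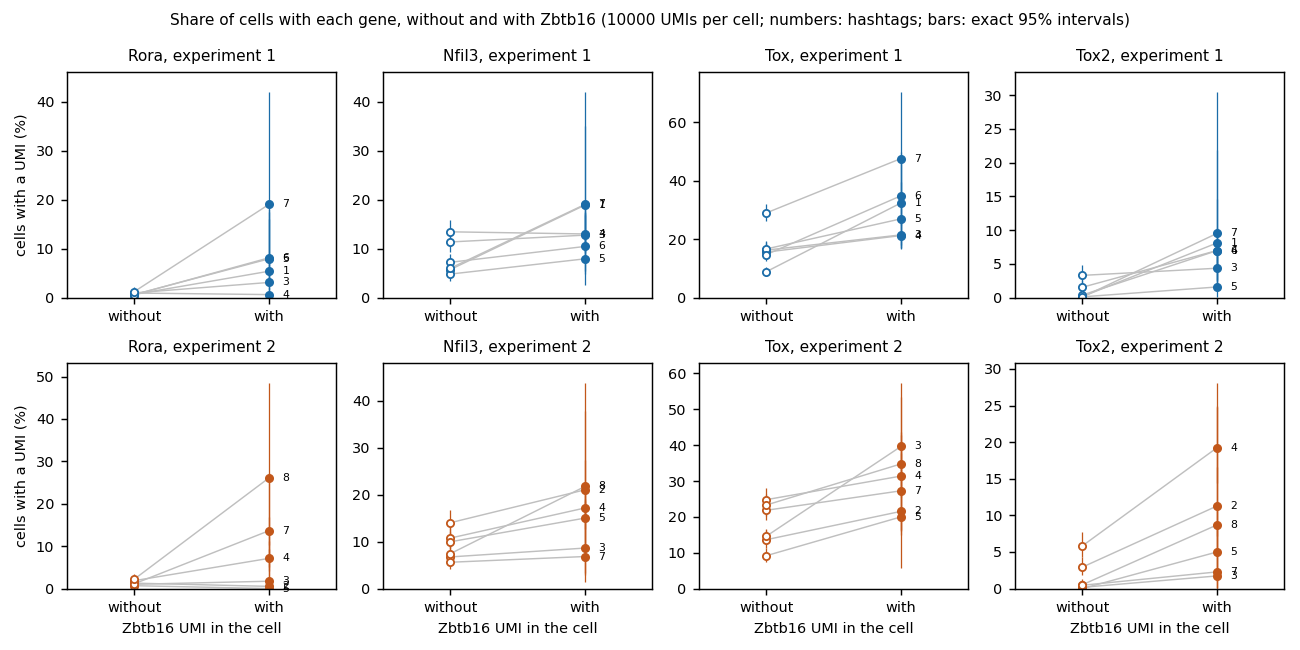
Share of cells with a UMI of Rora, Nfil3, Tox or Tox2 (columns), in percent, among cells without and with a Zbtb16 UMI (x axis), at 10000 UMIs per cell, for the 6 hashtags (numbered) of experiment 1 (top) and experiment 2 (bottom) with at least 20 Zbtb16-positive cells, with exact 95% intervals as bars. Tox and Tox2 are higher with Zbtb16 in every hashtag shown, and Rora and Nfil3 in 4 to 6 of the 6.

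Cells with at least 2 of the 5 genes made up 12.6% and 13.2% of hashtags 3 and 4 and 1.04 to 5.84% of the other hashtags of experiment 1. In experiment 2 they made up 11.2% and 17.5% of hashtags 2 and 4 and 1.20 to 4.55% of the others. Cells with all 5 genes numbered 2 of 8224 and 1 of 7746 at this depth, and 69.3% and 69.8% of cells had none of them.

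Between the experiments, the summed level of Zbtb16 over all hashtagged cells was 13.5 CPM (experiment 1) and 8.45 CPM (experiment 2), which is 0.625 times (0.590 to 0.662) the level of experiment 1. Rora had 1.46 and 2.33 CPM (ratio 1.59, 1.39 to 1.83), Nfil3 had 8.76 and 10.5 CPM (1.20, 1.13 to 1.28) and Tox had 19.8 and 18.6 CPM (0.938, 0.899 to 0.979). Tox2 had 1.44 and 2.00 CPM (1.39, 1.21 to 1.61), but 0.593 was its ratio without hashtag 4 of experiment 2. These ratios compare 2 libraries with different culture lengths and unknown mixes of conditions, which cannot be told apart.

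Other regulators shared by innate lymphoid and T cells were examined as a list of 14, of which 9 had enough UMIs for a ratio in each experiment. In both experiments 7 of the 9 reached a ratio of 2, with a median ratio of 3.18 in experiment 1 and 4.10 in experiment 2, against 18.5% and 26.6% of all genes examined and medians of 1.37 and 1.47 over them. Gata3, the regulator of T cells and group 2 innate lymphoid cells, had its highest values in the hashtags with the highest Zbtb16, at 141.2 and 141.8 CPM in hashtags 3 and 4 of experiment 1 (44.6 to 65.2 CPM elsewhere) and 85.1 and 101.8 CPM in hashtags 2 and 4 of experiment 2 (24.8 to 53.1 CPM elsewhere). Tcf7, the gene of TCF-1, was also highest in those hashtags, with 258.1 and 272.9 CPM in experiment 1 (95.3 to 174.0 CPM elsewhere) and 178.7 and 206.2 CPM in experiment 2 (28.2 to 155.9 CPM elsewhere). Id2, which restrains E proteins and is required for innate lymphoid cells, was highest in hashtag 7 of experiment 1 (102.8 CPM). In experiment 2 it was highest in hashtags 8 and 6 (119.9 and 118.8 CPM). Of the 7 factors that reached a ratio of 2, 3 were highest in hashtag 3 or 4 of experiment 1. In experiment 2, 4 of 7 were highest in hashtag 2 or 4. The share of all genes that were highest in those hashtags is not given here, so these counts are not read as particular to the list.

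Of 20 innate lymphoid receptors and products, 14 had enough UMIs, and 11 of them in experiment 1 and 12 in experiment 2 reached a ratio of 2, with medians of 3.48 and 7.80. Klrd1, a natural killer receptor chain, was highest in hashtag 7 of experiment 1 at 39.0 CPM (19.4-fold above the lowest, 15.0 to 25.5) and in hashtag 4 of experiment 2 at 49.2 CPM. Il12rb2, a chain of the IL-12 receptor, was highest in the Zbtb16-high hashtags, at 36.2 and 36.0 CPM in hashtags 3 and 4 of experiment 1 and at 21.0 and 22.3 CPM in hashtags 2 and 4 of experiment 2. Most of the list did not share that order in experiment 1. Of the 11 that reached a ratio of 2 there, 2 were highest in hashtag 3 or 4. Of the 12 in experiment 2, 7 were highest in hashtag 2 or 4. The share of all genes is not given for these counts either, so they too are not read as particular to the list. Il7r was lowest in hashtag 3 of experiment 1 (7.65 CPM) and in hashtag 2 of experiment 2 (4.91 CPM).

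Clock genes were examined because Nfil3 and Rora are also clock regulators. Of 16 listed, 12 had enough UMIs and 4 reached a ratio of 2 in each experiment, with medians of 1.84 and 1.68, nearer to those of all genes. Arntl, which encodes the clock activator BMAL1, had 22.2 and 22.6 CPM in hashtags 3 and 4 of experiment 1 and 16.9 and 18.6 CPM in hashtags 2 and 4 of experiment 2, where hashtag 7 was highest at 27.1 CPM. Nr1d1, the repressor gene that competes with RORα for its sites, had 0.765 to 1.17 CPM in experiment 1 and 0.689 to 1.42 CPM in experiment 2.

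Likeness to each member was taken as the smaller of the 2 Pearson correlations of log2(CPM + 1) over the 8 hashtags. A high value does not require the same order of hashtags. The genes most like each member were found among 8470 or 8471 genes whose mean reached 5 CPM in both experiments. For Zbtb16 these were Hook1 (r of 0.972 and 0.969), Dnase2a, Socs4, Rictor and Jak1, of which Jak1, a kinase of cytokine receptors, ranged from 138.7 to 322.7 CPM and from 96.9 to 262.2 CPM. For Tox2 they were Ndufa11, Dhx34, Itgae, Pgam2 and Gch1. In experiment 1 their rank correlations (rho) were lower, at 0.595 to 0.810, than their r of 0.945 to 0.970. Pgam2, a muscle-type glycolytic enzyme and the gene that led the Zbtb16-high clusters, ranged from 0.901 to 223.6 CPM and from 2.22 to 480.5 CPM (r of 0.961 and 0.949, rho of 0.810 and 0.738). For Nfil3 they were Nisch, Grina, Klf13, Cd300lf and Tmbim4, for Tox Rcbtb2, Ndfip2, Birc2, Sept1 and Unc119, and for Rora Acadvl, Fbxl17, Taf7, Plekho2 and Arid4a, the last with r of 0.858 and 0.841. The best of so many genes over 8 points that share a library is high by selection, so these values rank genes and carry no test.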

How the data were processed

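The members and the gene lists were chosen with earlier results of these data known. The authors deposited raw UMI counts per gene and cell and raw hashtag counts per cell, and the submitters' processing notes name Cell Ranger 3.0.0 and the builds mm10 and GRCm38. The deposited gene and barcode lists hold names only. The barcode filter, the aligner settings and the annotation release are not given in the sources used here. Because the hashtag columns name no condition, the planned test with edgeR's quasi-likelihood model was not applicable, the design was kept as written, and values are given per hashtag with no p-value. Cells were kept where they had 500 or more genes and a mitochondrial share under 10%. A hashtag call needed at least 50 counts and 3 times the second tag, which leaves out cells with 2 strong tags, and no other doublet caller was run. Doublets within a hashtag remain. CPM have exact Poisson intervals, ratios exact conditional intervals and shares Clopper-Pearson intervals, all at 95%. A count of 0 was read as up to 3 UMIs. Cells were clustered with scanpy 1.11.5 (2000 variable genes without the 5 members, 30 principal components, 15 neighbours, Leiden resolution 0.5), and a cluster took a class name with at least 3 class markers among the 50 genes that led it by fold at 50 CPM or more, at least 1 of them among the 10 leading genes. The scoring of names was set after the clusters were seen. The calculations were tested on simulated data. Named genes are the 5 members, the 55 listed genes, Runx1, and 5 genes per member by likeness, for which log2(CPM + 1) was used. Cluster-leading genes were named after their values were seen. Alternatives changed the hashtag call, cell filter, scaling (TMM in edgeR 4.0.16, size factors in DESeq2 1.42.0), averaging, depth, clusters and the cells or hashtags included.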

Additional observations from a re-analysis of the deposited data

Results flagged for a closer look

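In 2 of the 10 sets of 8 hashtag values, 1 hashtag lay far from the other 7. Rora in hashtag 8 of experiment 1, at 4.41 CPM, was the first, and Tox2 in hashtag 4 of experiment 2, at 11.1 CPM, was the other. Chance gives about 1 in 20 such sets only where the 8 values are independent draws from a single distribution. The hashtags are cultures of unknown condition in 1 library, so that rate does not apply to them and nothing was tested.

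Cells that passed the cell filter but had no hashtag call entered no comparison, and all 5 genes were found in them above the level that a count of 0 allows. In the 535 such cells of experiment 1, Zbtb16 had 12.997 CPM, Rora 1.92 CPM, Nfil3 7.70 CPM, Tox 21.3 CPM and Tox2 0.941 CPM. In the 1879 such cells of experiment 2, Zbtb16 had 5.26 CPM, Rora 3.12 CPM, Nfil3 12.8 CPM, Tox 14.6 CPM and Tox2 0.951 CPM. Each of these values lay within the range of the 8 hashtags of its experiment.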

How the results depend on the processing

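Of 374 values recomputed under alternative settings, 299 moved less than their counting error, 71 moved more and 4 changed direction. The cause of each change was not tested. No paired analysis was possible because the hashtags carry no condition and their numbers name a barcode only.

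Ratios of highest to lowest hashtag in experiment 1 moved for Zbtb16 and Tox with cells thinned to 3000 UMIs (29.4 and 4.97), for Rora under a stricter cell filter, of 1000 genes or more and a mitochondrial share under 5% (3.53), and for Nfil3 without cells of the other named classes (4.07). In experiment 2, the Zbtb16 ratio was 22.6 with a top tag of at least 100 counts and 10 times the second, and 62.7 without the 5 cells with the most UMIs per hashtag, a setting chosen after seeing the data. The Rora ratio was 3.98 with a top tag of at least 20 counts and 2 times the second, 9.83 thinned, 10.2 without other classes and 9.59 without the 5 cells. Leaving out 1 hashtag at a time gave 14.2 to 19.5 for Zbtb16, 2.71 to 5.78 for Rora, 2.53 to 3.10 for Nfil3, 3.10 to 4.16 for Tox and 12.4 to 24.0 for Tox2 in experiment 1. In experiment 2 it gave 23.2 to 34.6, 4.62 to 6.09, 2.17 to 2.79, 2.62 to 4.05 and 25.9 to 74.1.

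The ratio of experiment 2 to experiment 1 was the least stable. For Tox, it reversed to 1.09 under the stricter cell filter, 1.07 without hashtag 7 of experiment 1 and 1.03 without hashtag 1 of experiment 2, and was 0.988 with TMM, 0.987 with DESeq2 size factors, 0.885 as a mean over cells and 0.868 thinned, with a leave-one-out range of 0.856 to 1.07. For Tox2 it reversed to 0.593 without hashtag 4 of experiment 2 and was 2.08 as a mean over cells and 1.88 thinned, with a range of 0.593 to 1.95. For Zbtb16 it was 0.706 with the stricter tag rule, 0.748 as a mean over cells and 0.780 thinned (range 0.425 to 0.888), for Rora 1.37 without other classes (range 1.36 to 1.86), and for Nfil3 1.32 as a mean over cells, 1.28 thinned and 1.13 without other classes (range 1.09 to 1.37).

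Of the listed clock genes, 2 in place of 4 reached a ratio of 2 in experiment 1 under that stricter filter, and 2 in experiment 2 with a minimum of 30 UMIs per hashtag. Of the relatives, 0 in place of 1 did so with 30 UMIs in both experiments and under the stricter filter in experiment 1. The median difference in Tox share with and without Zbtb16 in experiment 2 was 21.9 points in unthinned cells, against 9.37 points thinned. The highest cluster level was 132.0 CPM for Tox in experiment 1 and 59.7 CPM for Nfil3 in experiment 2 with 3000 variable genes, and 66.4 CPM for Zbtb16 and 33.4 CPM for Tox2 in experiment 2 at resolution 1. Depth limits Rora and Tox2 most, since several hashtags hold under 30 of their UMIs.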
